A study of Mus musculus with 4 samples.

Results

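The 10 genes described here encode the machinery that makes and loads major histocompatibility complex (MHC) class I molecules, and each of them was among the 14082 genes listed for every library. They were chosen by gene name under a rule that uses no measured value, but with earlier results of these data known. They are the heavy chain genes H2-K1 and H2-D1, the light chain gene B2m, the peptide transporter genes Tap1 and Tap2, the peptide editor gene Tapbp, the trimming aminopeptidase gene Erap1, the immunoproteasome genes Psmb8 and Psmb9, and the transactivator gene Nlrc5. RNA came from cells sorted by flow cytometry as CD8 T cells specific for ovalbumin, and transcripts of other cells were abundant in it. The cells came from subcutaneous tumours of E.G7 in mice aged 6 to 10 weeks. E.G7 is a line made from the EL4 mouse T lymphoma to express ovalbumin. The KO group had 2 libraries from Cd8-cre Smad4-fl/fl mice and the WT group had 2 libraries from Smad4-fl/fl mice, so both groups carried the floxed Smad4 alleles and differed by the Cre transgene. Cre is driven from Cd8, as its name in the labels says, so host cells without Cd8 expression, and the tumour cells, need not lose Smad4. Whether the libraries of 1 group were made from different mice is not stated, so p-values here reflect the spread among these libraries, which could be technical.

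Class I molecules show peptides from inside the cell to CD8 T cells, and nearly all nucleated cells make them. The immunoproteasome, in which interferon-induced subunits replace constitutive ones, cuts cytosolic proteins. TAP carries the fragments into the endoplasmic reticulum, Erap1 trims them, and tapasin, the product of Tapbp, holds empty heavy chains beside TAP until a fitting peptide binds. NLRC5 is recruited to class I promoters through an enhanceosome on the X and Y boxes, and interferon gamma raises the whole set, in part through IRF1. CD8 T cells carry class I on their own surface as well as reading it on other cells, so these transcripts can come from any cell in the sorted sample.

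On mm10, 7 of the 10 genes lie in the MHC region of chromosome 17 (GENCODE M21). Tapbp lies at 33915899 to 33929292 on the plus strand, H2-K1 at 33996017 to 34000347 on the minus strand and H2-D1 at 35262730 to 35267499 on the plus strand. Psmb9, Tap1, Psmb8 and Tap2 lie next to each other within 34335 bases, from 34181987 to 34216321. B2m is on chromosome 2 (122147686 to 122153083), Nlrc5 on chromosome 8 (94434356 to 94527272) and Erap1 on chromosome 13 (74639568 to 74693201), all 3 on the plus strand, and all 10 genes are protein coding. Some exons are shared with neighbours, so reads from them cannot be told apart where the counting did not use strand. Tap1 and Psmb9 share 212 exon bases on opposite strands, Erap1 and Cast 834 on opposite strands, and Tapbp and Zbtb22 149 on the same strand. H2-K1 and H2-D1 are close paralogs of each other and of the H2-Q and H2-T genes, and how reads matching several of them were counted is not given in the sources used here.

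RefSeq start site windows (250 bases before to 50 bases from the start, build GRCm38.p6, the assembly called mm10) were found for 8 of the 10 genes. The windows of H2-K1, H2-D1 and B2m, which encode the chains of the class I molecule, and of Tap1, which had the largest change among the 8 genes with a window, are printed 5′ to 3′ on the strand of the gene. Capitals mark matches, on either strand, to the X2 box core TGACG, the Y box CCAAT, the interferon regulatory factor core AANNGAAA and the kappaB element GGGATTCCC. H2-K1 is chr17:34000298-34000597 on the minus strand, H2-D1 chr17:35262844-35263143, B2m chr2:122147437-122147736 and Tap1 chr17:34187306-34187605 on the plus strand.
H2-K1: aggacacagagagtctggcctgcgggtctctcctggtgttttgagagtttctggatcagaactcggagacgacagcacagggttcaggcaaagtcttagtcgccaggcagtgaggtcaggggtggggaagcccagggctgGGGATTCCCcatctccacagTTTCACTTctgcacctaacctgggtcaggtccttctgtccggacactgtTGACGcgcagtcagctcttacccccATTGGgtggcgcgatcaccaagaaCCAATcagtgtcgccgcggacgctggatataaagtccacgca
H2-D1: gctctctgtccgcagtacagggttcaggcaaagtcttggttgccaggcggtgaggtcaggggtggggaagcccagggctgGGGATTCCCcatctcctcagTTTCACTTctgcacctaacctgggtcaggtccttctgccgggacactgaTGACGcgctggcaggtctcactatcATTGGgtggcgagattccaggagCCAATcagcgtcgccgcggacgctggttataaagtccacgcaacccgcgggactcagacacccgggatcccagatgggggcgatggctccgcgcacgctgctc
B2m: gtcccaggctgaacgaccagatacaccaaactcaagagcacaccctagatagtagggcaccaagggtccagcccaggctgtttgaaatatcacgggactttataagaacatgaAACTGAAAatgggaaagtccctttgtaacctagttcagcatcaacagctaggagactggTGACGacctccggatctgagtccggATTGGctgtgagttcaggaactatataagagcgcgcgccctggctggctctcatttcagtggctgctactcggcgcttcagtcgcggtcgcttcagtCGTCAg
Tap1: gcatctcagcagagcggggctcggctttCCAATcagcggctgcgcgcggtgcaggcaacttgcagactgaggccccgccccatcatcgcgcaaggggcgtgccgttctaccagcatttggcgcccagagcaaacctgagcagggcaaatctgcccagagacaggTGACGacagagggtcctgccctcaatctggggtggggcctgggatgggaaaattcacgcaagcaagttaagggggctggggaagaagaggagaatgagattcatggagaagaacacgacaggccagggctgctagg

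In H2-K1, H2-D1 and B2m an X2 core was followed, 25 bases from first base to first base, by a Y box on the opposite strand. That arrangement, written TGACGNNNNNNNNNNNNNNNNNNNNATTGG and chosen after these windows were seen, occurred on either strand in 0.0944% of 32851 RefSeq windows of the same length. The X2 core alone was in 20.8% of all windows and 5 of the 8 member windows, and the Y box alone in 37.4% and 6. The kappaB element, found in 0.353% of all windows, was present in H2-K1 and H2-D1, whose windows share a longest run of 47 identical bases. H2-K1, H2-D1, B2m and Erap1 held the interferon regulatory factor core, which was in 23.9% of all windows. A GAS core TTCNNNGAA, the gamma-activated site motif, present in 8.3% of windows, was found in Psmb8. The Tap1 and Psmb9 start sites face away from each other with 226 bases between them. Their windows share 275 bases on opposite strands, and the Tap1 sequence printed above serves both. The X2 core and Y box matches of Tap1 and Psmb9 are the same bases, so the member counts above hold them in both windows.

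**Figure D1:**
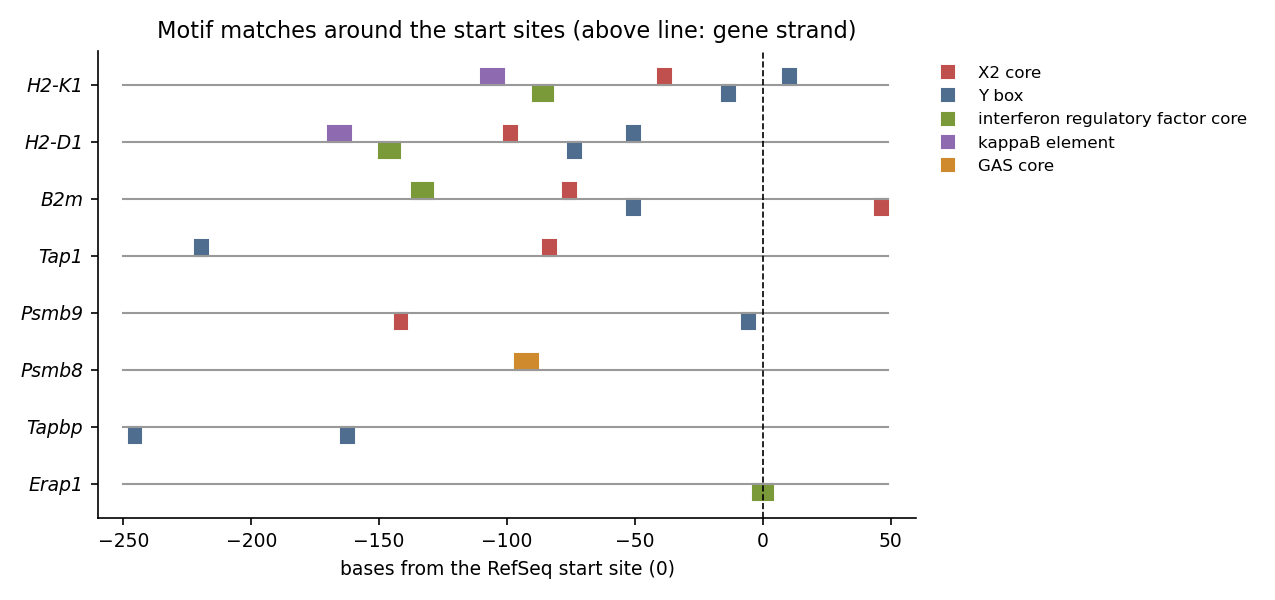
Matches to 5 motifs (coloured blocks) in the RefSeq windows of 8 genes, drawn by distance in bases from the annotated start site at 0, with blocks above the line on the strand of the gene and blocks below on the opposite strand. H2-K1, H2-D1 and B2m have an X2 core followed at 25 bases by a Y box.

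Summed counts were 25806382 and 26218277 in KO libraries and 24366540 and 25790107 in WT libraries. Smad4, the targeted gene, had 779 and 1088 counts in KO libraries and 752 and 736 in WT libraries (log2 fold change 0.19, edgeR adjusted p = 0.397), so it was not lower in the libraries labelled KO. A gene-level count includes exons that Cre does not remove, but counts per exon were not examined and the reason for this Smad4 level was not tested. The 10 class I genes summed to 15490 and 15530 CPM (counts scaled to the library total with TMM factors) in KO libraries and 17630 and 18090 CPM in WT libraries. The sorted samples also held transcripts of other cells, so the class I values are not those of T cells alone. Among all tested genes, 10.1% were called higher and 11.0% lower by edgeR. All 9 macrophage markers were detected in every library, with 1 higher and 0 lower, near those shares. DESeq2 called 1 macrophage marker lower and limma-voom 2. The macrophage markers summed to 19990 and 20580 CPM in KO libraries and 19360 and 20130 CPM in WT libraries. The 7 T cell markers, all detected, summed to 1540 and 1558 CPM in KO libraries and 2305 and 2319 CPM in WT libraries, with 4 lower. The tumour line is itself a T lymphoma, and whether any of these transcripts came from tumour cells was not tested. In every library the macrophage sum was far above the T cell sum. Lyz2 alone gave 11560 and 12350 CPM of it in KO libraries and 11800 and 12360 CPM in WT libraries. The lists hold different genes, so their sums do not compare numbers of cells. The 10 neutrophil markers, all detected, summed to 1492 and 1473 CPM in KO libraries and 415 and 428.5 CPM in WT libraries, with 6 higher. S100a8 (641.1 and 647.3 CPM) and S100a9 (471.6 and 473.0 CPM) gave most of the KO sums. Ltf, Camp, Ngp and Ly6g were not called (log2 fold changes -0.41, 1.80, 1.86 and 0.34). Ly6g had only 9 and 19 counts in KO libraries and 10 in each WT library. Erythroid markers summed to 85.1 and 53.1 CPM in KO libraries and 27.3 and 34.1 CPM in WT libraries, with 4 of 5 higher. Dendritic cell markers summed to 329.0 and 340.7 CPM in KO libraries and 221.3 and 221.9 CPM in WT libraries, with 2 of 7 higher and 1 lower. Most of that difference was Siglech, at 168.0 and 174.1 CPM in KO libraries and 67.1 and 64.9 CPM in WT libraries. Flt3 was the other higher gene, Cd209a was lower, and Itgax, Xcr1, Clec9a and Zbtb46 were not called. Fibroblast markers summed to 587.2 and 646.9 CPM in KO libraries and 552.8 and 514.9 CPM in WT libraries, with 2 of 5 higher. Markers of B cells (2 of 4 tested) and CD4 T cells (1 of 2) were also higher, at summed levels of 14.1 to 77.8 CPM in KO libraries and 6.88 to 40.1 CPM in WT libraries. Of 3 endothelial markers 1 was lower, and neither of 2 NK cell markers was called by edgeR, DESeq2 or limma-voom or had an unadjusted p under 0.05. The part of these differences in the class I values was not tested, and in bulk RNA fewer cells of a type and less RNA per cell cannot be told apart.

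Of the 10 class I presentation genes, 6 fell in KO libraries by small amounts, 0 rose and 4 did not pass the test. The 6 were Nlrc5, Tap1, H2-K1, Tapbp, Erap1 and B2m, with falls between 1.17-fold for B2m and 1.65-fold for Nlrc5. Across all 13358 tested genes, 11.0% were called lower and 10.1% higher, 21.2% in all (edgeR quasi-likelihood, Benjamini-Hochberg adjusted p under 0.05). No member was higher at an unadjusted p under 0.05 either, or with DESeq2 or limma-voom, which each called 7 lower. All 10 log2 fold changes were below 0, with a median of -0.24, against -0.0037 over all tested genes. For 9 of the 10, both KO libraries lay below both WT libraries, a pattern seen in 30.0% of all tested genes, while both KO libraries lay above both WT libraries for none of the 10 and for 29.7% of all tested genes. With library totals alone as the scaling, the members' median became -0.15 while that of all genes became 0.08, and 4 members fell (Nlrc5, Tap1, H2-K1 and Tapbp).

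**Figure D2:**
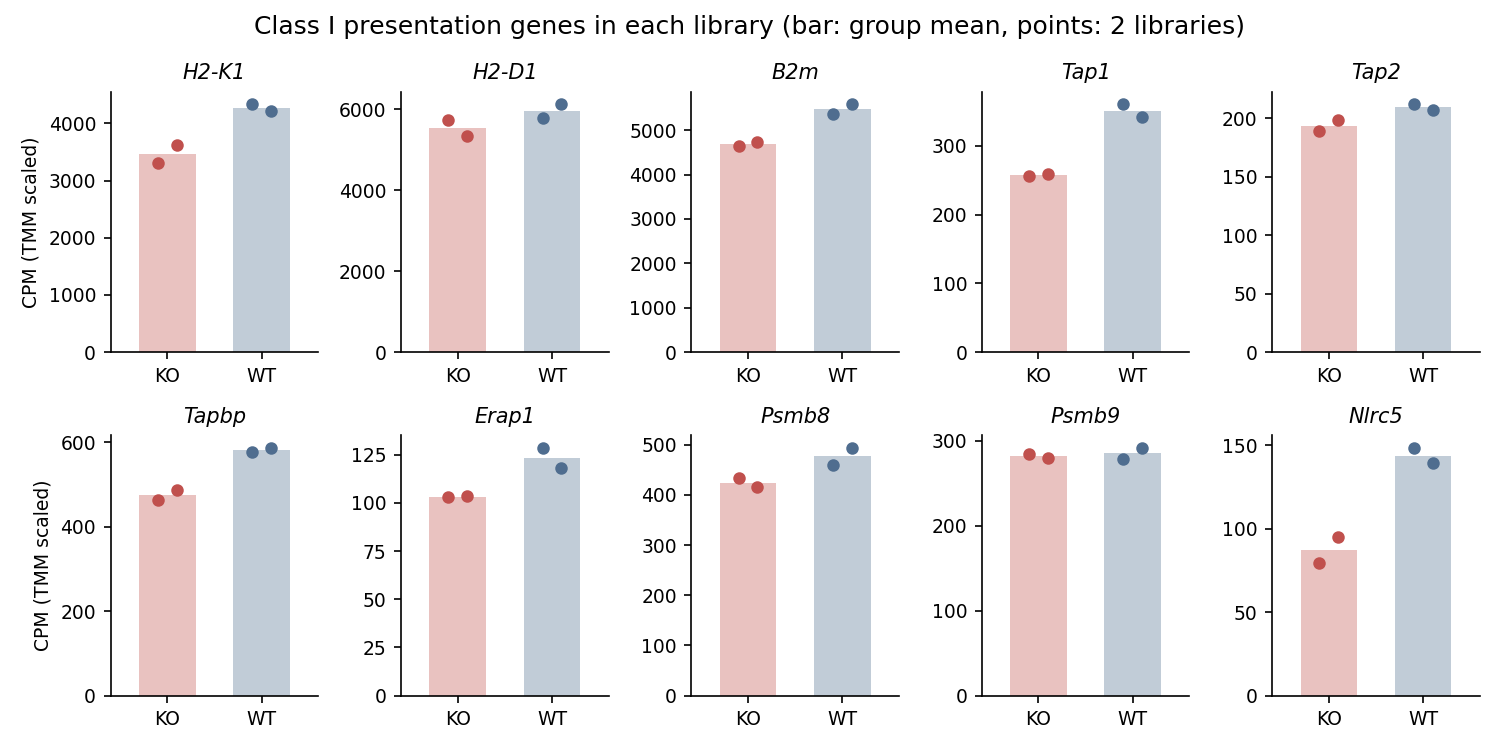
CPM (TMM scaled) of the 10 genes, 1 panel each with its own vertical axis from 0. Bars are means of the 2 KO and 2 WT libraries and points are the libraries. Both KO points lie below both WT points in every panel except that of Psmb9.

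The heavy and light chains make up the class I molecule itself. H2-K1, which encodes the K heavy chain, had 3299 and 3626 CPM in KO libraries, against 4331 and 4217 CPM in WT libraries. The groups did not overlap, and H2-K1 was 1.23-fold lower in KO (log2 fold change -0.30, SE 0.06, edgeR adjusted p = 0.00211). B2m, which encodes beta-2 microglobulin, the light chain that all classical heavy chains need, had 4647 and 4732 CPM in KO libraries, against 5358 and 5581 CPM in WT libraries. It was 1.17-fold lower (log2 fold change -0.22, SE 0.05, edgeR adjusted p = 0.00728). B2m no longer passed once WT replicate 2 was left out (edgeR adjusted p = 0.101) or TMM factors were not used (0.0626), and its smallest adjusted p was 0.000102. H2-D1, which encodes the D heavy chain, had 5735 and 5331 CPM in KO libraries, against 5773 and 6117 CPM in WT libraries. Its KO replicate 1 lay just under WT replicate 1, and it did not pass (log2 fold change -0.10, SE 0.06, edgeR adjusted p = 0.218). These 3 genes together summed to 13680 and 13690 CPM in KO libraries and 15460 and 15910 CPM in WT libraries.

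TAP is made of both TAP chains, of which Tap1 passed the test and Tap2 did not. Tap1 had 256.6 and 259.0 CPM in KO libraries, against 360.4 and 342.3 CPM in WT libraries, with the KO libraries close together and well under both WT libraries. It was 1.36-fold lower (log2 fold change -0.45, SE 0.06, edgeR adjusted p = 0.000102). Tap2 had 188.9 and 198.2 CPM in KO libraries, against 211.8 and 207.2 CPM in WT libraries. The groups did not overlap but were near each other, and Tap2 did not pass (log2 fold change -0.11, SE 0.06, edgeR adjusted p = 0.187). By CPM Tap1 was above Tap2 in every library. Per length the pair changed places, an order that depends on the lengths used, which were all annotated exon bases (5476 for Tap1 and 3781 for Tap2). Tap1 stood at 45.4 and 45.7 FPKM (read counts scaled by exon length and library total, from the deposited tables) in KO libraries, below the 48.4 and 50.7 FPKM of Tap2 there. In WT libraries Tap1, at 63.3 and 60.3 FPKM, was above Tap2, at 53.8 and 52.8 FPKM.

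Tapbp, which encodes tapasin, had 463.0 and 486.9 CPM in KO libraries, against 576.0 and 586.4 CPM in WT libraries. The groups were apart, and Tapbp was 1.22-fold lower (log2 fold change -0.29, SE 0.05, edgeR adjusted p = 0.0019). The gene that shares exon bases with it, Zbtb22, stood at 9.37 and 9.78 CPM in KO libraries and 13.3 and 10.6 CPM in WT libraries. Erap1, the aminopeptidase that cuts peptides to the length class I holds, had 103.1 and 103.6 CPM in KO libraries, against 128.6 and 118.0 CPM in WT libraries. It was 1.19-fold lower (log2 fold change -0.25, SE 0.07, edgeR adjusted p = 0.0182). Erap1 no longer passed once WT replicate 1 was left out (edgeR adjusted p = 0.213) or TMM factors were not used (0.0939), and its smallest adjusted p was 0.0127. Cast, the calpastatin gene that overlaps Erap1, was also lower (log2 fold change -0.34, SE 0.07, edgeR adjusted p = 0.00414), and the share of reads that could belong to either was not tested.

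Nlrc5 had the largest fall of the 10. Its protein is the transactivator of class I genes, and it had 79.5 and 95.1 CPM in KO libraries, against 148.4 and 139.2 CPM in WT libraries. The groups were far apart relative to the spread within them, and Nlrc5 was 1.65-fold lower (log2 fold change -0.72, SE 0.08, edgeR adjusted p = 5.95e-05). Over the 12 alternatives the log2 fold change of Nlrc5 ran from -0.86 to -0.60 and the call held in each.

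Neither of the immunoproteasome genes passed the test. Psmb8, whose protein takes the place of the constitutive subunit encoded by Psmb5, had 432.6 and 416.5 CPM in KO libraries, against 460.1 and 493.5 CPM in WT libraries. The groups did not overlap, but Psmb8 lay just outside the threshold (log2 fold change -0.17, SE 0.06, edgeR adjusted p = 0.0519). It passed with limma-voom, DESeq2, a filter at 5 CPM or without KO replicate 1 (adjusted p = 0.0445 to 0.0499), and its highest adjusted p was 0.401. Psmb9, which replaces Psmb6, had 284.7 and 280.2 CPM in KO libraries and 279.2 and 291.8 CPM in WT libraries, the only member whose groups overlapped. Its log2 fold change was -0.02 (SE 0.05, edgeR adjusted p = 0.885), and turned to 0.07 with library totals alone and 0.02 without WT replicate 2.

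**Figure D3:**
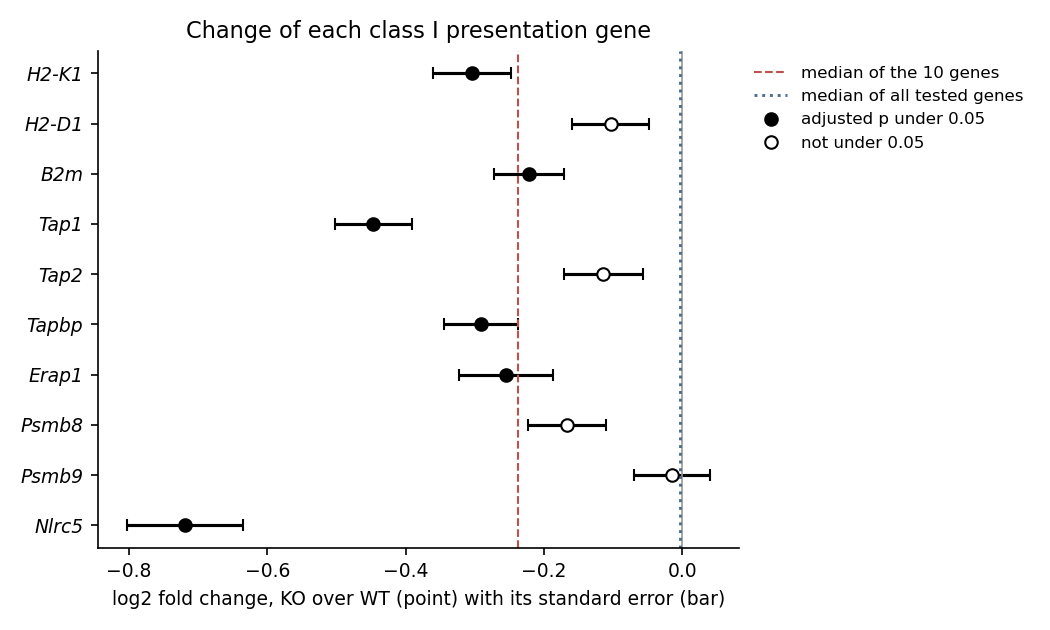
The log2 fold change, KO over WT, of each of the 10 genes (points) with its standard error (bars). Filled points passed at an adjusted p under 0.05, and the lines mark the median of the 10 genes (-0.24) and of all tested genes (-0.0037). Nlrc5 lies farthest from 0 and Psmb9 nearest to it.

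Per length, the members spanned a wide range of levels. The order of genes at near levels depends on the exon lengths used. In KO libraries mean FPKM ran from 5278 for B2m through 2077 for H2-D1, 1141 for H2-K1, 126.7 for Tapbp, 121.6 for Psmb8, 74.7 for Psmb9, 49.5 for Tap2, 45.6 for Tap1 and 13.7 for Erap1 to 9.95 for Nlrc5. In WT libraries the means were 6123 for B2m, 2219 for H2-D1, 1400 for H2-K1, 154.2 for Tapbp, 135.8 for Psmb8, 75.1 for Psmb9, 61.8 for Tap1, 53.3 for Tap2, 16.31 for Erap1 and 16.30 for Nlrc5. Neighbours in these orders were apart in both libraries of a group, except that Tapbp and Psmb8 overlapped in KO libraries and Erap1 and Nlrc5 overlapped in WT libraries. B2m ranked 6 to 7 among all 14082 genes by FPKM in the 4 libraries, H2-D1 11 to 14 and H2-K1 20 to 26. Nlrc5 ranked 4469 and 3985 in KO libraries, against 2873 and 3020 in WT libraries. Tap1 ranked 1184 and 1168 in KO libraries, against 827 and 883 in WT libraries.

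Ratios of FPKM within a library do not depend on the scaling between libraries. Each of the 3 immunoproteasome subunits was set against the constitutive subunit it replaces. The ratio of Psmb8 to Psmb5 was 0.671 and 0.594 in KO libraries, against 0.718 and 0.729 in WT libraries. For Psmb9 over Psmb6 the values were 0.380 and 0.390 in KO libraries, against 0.429 and 0.417 in WT libraries. Psmb10 over Psmb7 was 1.44 and 1.48 in KO libraries, against 1.91 and 2.07 in WT libraries, a log2 difference of -0.45. In all 3 pairs both KO libraries lay below both WT libraries. With 2 libraries against 2, the two-sided exact permutation test cannot go under p = 0.33, the value of each pair, so these differences do not pass a test. For the first pair the log2 difference was -0.20, and it was -0.29 without KO replicate 1 and -0.11 without KO replicate 2. Of the constitutive genes Psmb7 rose (log2 fold change 0.18, edgeR adjusted p = 0.045), while Psmb5 and Psmb6 had log2 fold changes of 0.03 and 0.12 (edgeR adjusted p = 0.784 and 0.164). Psmb6 passed where TMM factors were not used (edgeR adjusted p = 0.0189). The call of Psmb7, which shares 405 exon bases with Nek6 on the opposite strand, was lost without each of the libraries in turn (edgeR adjusted p = 0.0807 to 0.223), with DESeq2 (0.0686) and with limma-voom (0.0524). With the replicate number as a block it was lost too (edgeR adjusted p = 0.128), and its lowest adjusted p was 0.00541.

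Other ratios, chosen after the values were seen, set neighbours and partners side by side. Tap1 over Psmb9, whose start sites lie back to back, was 0.602 and 0.618 in KO libraries, against 0.863 and 0.784 in WT libraries. Tap1 over Tap2 was 0.938 and 0.903 in KO libraries, against 1.18 and 1.14 in WT libraries. H2-K1 over H2-D1 was 0.505 and 0.597 in KO libraries, against 0.659 and 0.605 in WT libraries, with KO replicate 2 and WT replicate 2 close together. B2m over H2-K1 overlapped between the groups, at 4.81 and 4.46 in KO libraries and 4.23 and 4.52 in WT libraries.

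**Figure D4:**
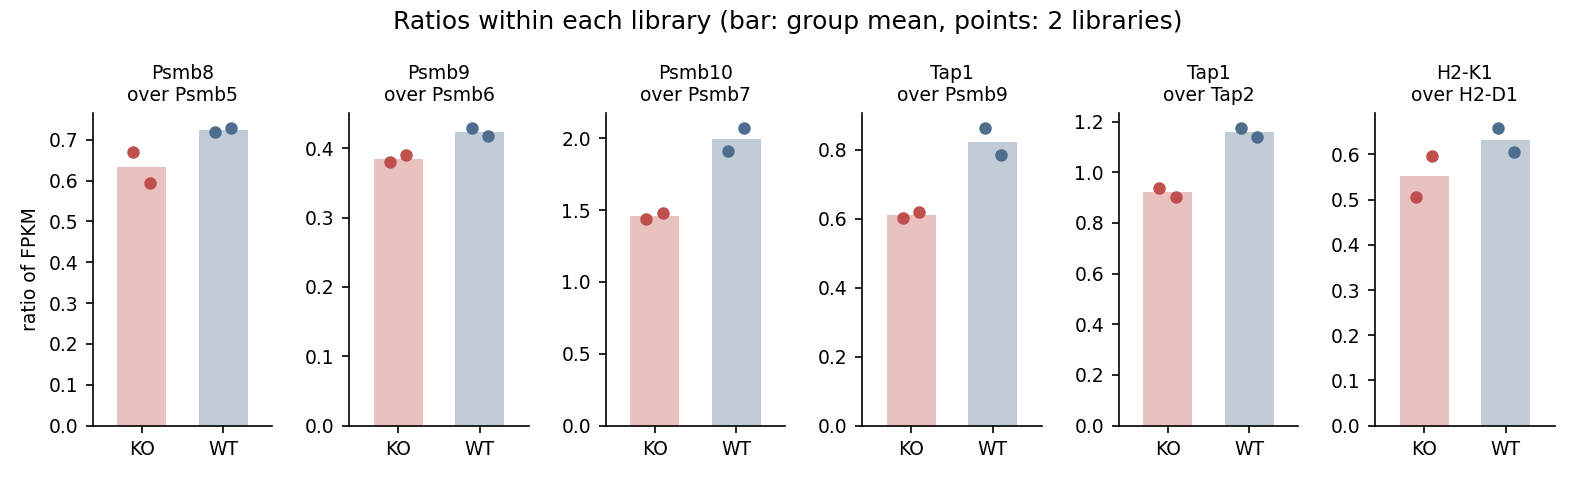
Ratios of deposited FPKM within each library for 6 pairs of genes, on axes from 0. Bars are group means and points are the 2 KO and 2 WT libraries, and in each drawn pair the KO points lie below the WT points. Tap1 over Psmb9, Tap1 over Tap2 and H2-K1 over H2-D1 were chosen after the values were seen. B2m over H2-K1, whose groups overlapped, is not drawn.

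Beyond the 10 members, genes that supply or load peptide were lower or did not pass. Of 13 such genes, 5 fell and 0 rose, against 11.0% lower and 10.1% higher among all tested genes. Their median log2 fold change was -0.13. By unadjusted p under 0.05, 1 was higher, and by DESeq2 and limma-voom 0 were higher. Psmb10, the remaining inducible catalytic subunit, fell to 124.5 and 128.2 CPM in KO libraries, against 147.8 and 157.8 CPM in WT libraries (log2 fold change -0.27, edgeR adjusted p = 0.00802). Psme2, a subunit of the interferon-induced proteasome activator, fell 1.19-fold (edgeR adjusted p = 0.00957). Tapbpl, the tapasin-related editor, was at 51.0 and 65.3 CPM in KO libraries, against 83.5 and 75.0 CPM in WT libraries (log2 fold change -0.45, edgeR adjusted p = 0.0107). Lnpep, an aminopeptidase that trims peptides in endosomes, fell 1.25-fold (edgeR adjusted p = 0.0178). Psmb10 (edgeR adjusted p = 0.102), Psme2 (0.0703) and Lnpep (0.164) missed the threshold without WT replicate 2, and Tapbpl (0.0831) and Lnpep (0.0514) without WT replicate 1. The list was sensitive to the scaling, with 2 lower and 2 higher under library totals alone, and had 2 lower without WT replicate 1 and 1 lower without WT replicate 2.

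Nonclassical and class I-like heavy chain genes moved both ways. Of 20 such genes, 15 were listed and tested, 4 fell, 3 rose and 8 did not pass, with a median log2 fold change of -0.29. Among all tested genes 11.0% were lower and 10.1% higher. H2-Q6 had 201.9 and 230.3 CPM in KO libraries, against 422.5 and 399.7 CPM in WT libraries (log2 fold change -0.93, edgeR adjusted p = 9e-07). H2-Q7, which gives rise to Qa-2, fell 1.46-fold (edgeR adjusted p = 0.000197). H2-Q6 and H2-Q7 are near-identical copies, so the split of reads between them is uncertain. H2-T23, which encodes Qa-1, the ligand of the CD94 and NKG2 receptors, had 267.5 and 268.1 CPM in KO libraries, against 425.8 and 395.6 CPM in WT libraries (log2 fold change -0.62, edgeR adjusted p = 7.74e-06). H2-M2 rose 3.29-fold, to 39.2 and 40.0 CPM in KO libraries, against 9.79 and 14.2 CPM in WT libraries (edgeR adjusted p = 7.17e-06). The other called genes, given outside the naming rule, were H2-T22, H2-Q10 and Fcgrt, with log2 fold changes of -0.43, 0.87 and 0.38.

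Regulators of class I genes were lower where they passed. Of 15 genes, 5 fell and 0 rose, with a median of -0.17, against 11.0% lower and 10.1% higher among all tested genes. At an unadjusted p under 0.05, by DESeq2 or by limma-voom, 0 rose. Irf2, an interferon regulatory factor, had 42.3 and 45.7 CPM in KO libraries, against 70.3 and 70.4 CPM in WT libraries (log2 fold change -0.68, edgeR adjusted p = 0.000114). The coactivator gene Crebbp fell 1.26-fold (edgeR adjusted p = 0.00446). Irf1 was at 173.2 and 191.1 CPM in KO libraries, against 224.5 and 202.7 CPM in WT libraries, with KO replicate 2 close to WT replicate 2. Its fall (log2 fold change -0.23, edgeR adjusted p = 0.0316) did not pass without WT replicate 1 (0.294), without KO replicate 1 (0.112) or where TMM factors were not used (0.154). Crebbp missed the threshold without WT replicate 2 (edgeR adjusted p = 0.0535). The list had 3 lower without WT replicate 1, 2 lower without WT replicate 2, and 3 lower with library totals alone. The X box factor genes Rfx5, Rfxap and Rfxank, which hold NLRC5 at class I promoters, had log2 fold changes of -0.09, 0.16 and -0.17 and did not pass (edgeR adjusted p = 0.813, 0.820 and 0.483).

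Of 7 genes of interferon gamma and its receptor signal, 3 fell and 1 rose, against 11.0% lower and 10.1% higher among all tested genes. Ifng, which encodes the cytokine, had 89.4 and 89.5 CPM in KO libraries, against 160.6 and 168.4 CPM in WT libraries, a 1.84-fold fall (edgeR adjusted p = 8.33e-07). The receptor kinase genes Jak1 and Jak2 fell 1.26-fold and 1.25-fold (edgeR adjusted p = 0.00148 and 0.0223). Ifngr2, a receptor chain, rose 1.20-fold (edgeR adjusted p = 0.0367), but did not pass in DESeq2 (0.0545) or without WT replicate 1 (edgeR adjusted p = 0.218), WT replicate 2 (0.0767) or KO replicate 1 (0.181). Jak2 missed the threshold without WT replicate 1 (edgeR adjusted p = 0.167) or WT replicate 2 (0.0774), and where TMM factors were not used (0.0772).

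Most genes for receptors that bind class I fell. Of 17 such genes 14 were listed and 13 tested, and 9 fell and 1 rose, with a median of -1.45. Among all tested genes 11.0% were lower and 10.1% higher. Klrd1, which encodes CD94, had 96.4 and 98.7 CPM in KO libraries, against 334.0 and 316.6 CPM in WT libraries, a 3.34-fold fall (edgeR adjusted p = 1.19e-09). Klrc1, which encodes its NKG2A partner, fell 2.73-fold (edgeR adjusted p = 1.49e-08). The CD8 chain genes Cd8a and Cd8b1, which are also among the T cell markers above, fell 1.90-fold and 1.94-fold (edgeR adjusted p = 1.23e-07 and 1.02e-07). The list had 0 higher without WT replicate 2 and 2 higher without KO replicate 2. Klra5 and Klra9 had no reads in KO libraries, but only 19 and 13 (Klra5) and 10 and 10 (Klra9) in WT libraries, so both calls rest on few reads. The median was the same with both set at a floor of 3 counts a library, as it must be while both stay below it.

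**Figure D5:**
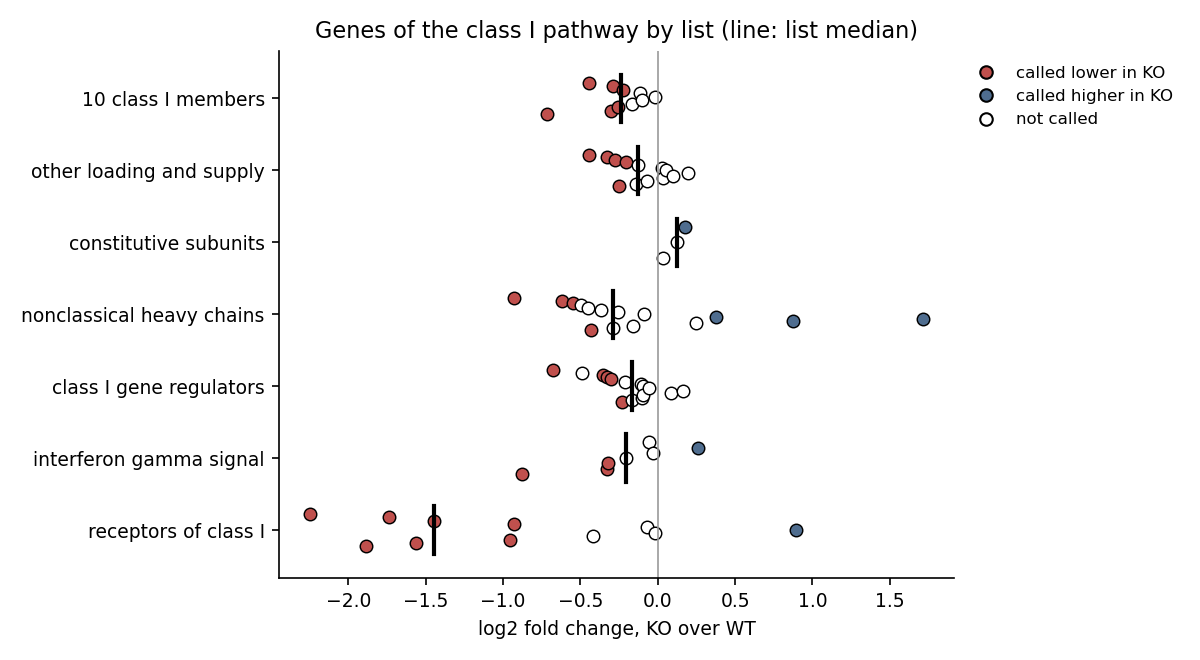
The log2 fold change, KO over WT, of every tested gene of the 10 members and 6 companion lists, apart from Klra5 and Klra9, which had no reads in KO libraries. Red points were called lower in KO, blue points higher, open points were not called, and the black line is the list median, which is -0.24 for the members and -1.45 for receptors of class I.

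Of 5 class II presentation genes, which mark antigen-presenting cells, 1 fell and 4 did not pass, a share near the 21.2% called among all tested genes. Ciita, the class II counterpart of Nlrc5, was at 36.6 and 44.4 CPM in KO libraries, against 51.1 and 48.2 CPM in WT libraries, and did not pass (log2 fold change -0.29, edgeR adjusted p = 0.0738). It passed without KO replicate 2 (0.00111) and with the replicate block (0.0408), and its highest adjusted p was 0.323. Cd74, the invariant chain gene, H2-Aa and H2-Ab1 had log2 fold changes of 0.05, -0.07 and -0.03 (edgeR adjusted p = 0.523, 0.360 and 0.764), and those of H2-Aa and H2-Ab1 turned to 0.02 and 0.05 with library totals alone. H2-Eb1 fell 1.13-fold (edgeR adjusted p = 0.0249), a call lost when any of the 4 libraries was left out, where TMM factors were not used and with the replicate block (edgeR adjusted p = 0.0578 to 0.212). The difference between class I and class II genes was not tested.

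The genes whose pattern over the 4 libraries lay closest to that of H2-K1 were Coro1a, Ifi27l2a and Septin9, among 10040 tested genes with a mean of at least 5 CPM. Likeness was the root mean square distance between log2 CPM profiles centred on their means, which was 0.0085, 0.012 and 0.012. Closest to Tap1 were Cd48, Stk17b and Stx11, at 0.0064, 0.012 and 0.013. All 6 were called lower (edgeR adjusted p between 0.000121 and 0.00714). These calls follow from the choice, since H2-K1 and Tap1 were called lower in the same libraries, and they add no support. Ifi27l2a missed the threshold without WT replicate 1 (edgeR adjusted p = 0.0647).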

How the data were processed

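Gene counts from 4 bulk RNA-seq libraries, 2 KO and 2 WT, were analysed, grouped by their titles. Per the labels' protocols, cells were sorted into lysis buffer, RNA was extracted with Trizol and libraries were made at BGI. Tools listed by the submitters' processing notes, without roles, are Bowtie2, Trim Galore 0.4.4, DESeq2, featureCounts and edgeR, with the build mm10. The deposited counts are whole reads per gene, not normalized, per the file headers and values. For the annotation, strandedness and handling of reads with several matches, the settings were not given in the sources used here. FPKM columns, named so per the file headers, were taken as the authors deposited them and served to compare levels between genes and as ratios within a library. Their totals were 1.01 times the summed counts in WT libraries and 1.06 times in KO libraries, and their implied lengths matched GENCODE M21 exon lengths within 0.1% for 98.4% of genes with at least 50 counts. Mapped reads outside the listed genes were not analysed here.

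Counts were tested across all genes by the robust quasi-likelihood test of edgeR 4.0.16 (R 4.3.3, TMM factors), after filterByExpr at its settings of 10 counts and 15 in all had taken out 724 genes and kept 13358, all 10 members included. P-values were adjusted by Benjamini-Hochberg with a threshold of 0.05. Each SE is the log2 fold change divided by the root of F. Summed counts of 24366540 to 26218277 per library put 2115 to 152872 reads behind each member's value, so spread between libraries, not counting error, limits precision. Replicates differed by more than counting noise (chi-square per degree of freedom 9.96 in KO and 7.64 in WT), so none were merged. The labels and file headers name no batch. Alternatives were other scalings, filters, a replicate block, leaving out each library, DESeq2 1.42.0 and limma-voom (limma 3.58.1). The edgeR step was tested on simulated data. The planted changes were all larger than the falls of the called members other than Nlrc5, so that test does not cover those falls. The 10 members and the companion lists were chosen with earlier results of these data known, so no list was tested as a set. Named were the members, Smad4, set genes of interferon signalling, proteasome, class II and CD8, up to 4 genes per list by p, and the 3 genes most like H2-K1 and Tap1. One gene that this rule names is not reported here. Promoter sequences are from RefSeq, GRCm38.p6, and motifs and the other ratios were chosen with sequences and values known.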

Additional observations from a re-analysis of the deposited data

How the results depend on the processing

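Of the 10 class I genes, 6 kept their direction and their side of the threshold under all 12 alternatives: H2-K1, H2-D1, Tap1, Tap2, Tapbp and Nlrc5. The count of members lower was 6, and lay between 4 (library totals alone) and 7, or 5 to 7 without a library, while 0 were higher throughout. With the replicate number as a block, 6 members were lower, and the block gave 1393 higher and 1522 lower genes in all. The labels do not say that a number marks a shared animal or day, and same-numbered libraries did not deviate together (correlation -0.015). The block lost Psmb7 and H2-Eb1 and gained Ciita, and changed no other named call. Differences of the ratios kept their sign throughout, between -0.29 and -0.11 for Psmb8 over Psmb5, -0.16 and -0.12 for Psmb9 over Psmb6, and -0.51 and -0.39 for Psmb10 over Psmb7 without a library.

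Among all genes 1354 were higher and 1472 lower, or 47.9% of calls higher. Library totals alone gave 2105 higher and 1013 lower (67.5%), and leaving out a library gave 714 to 1605 higher and 831 to 1787 lower. For loading and supply genes, library totals alone gave 2 lower and 2 higher, upper quartile factors and a filter at 5 CPM 1 higher, and leaving out a library 1 to 5 lower and 0 to 1 higher. Class I regulators gave 3 lower with library totals alone, and 2 to 5 lower and 0 to 1 higher without a library. Interferon gamma signal genes gave 0 higher with DESeq2 and 0 to 1 without a library. Class I receptors gave 5 lower of 7 with the filter at 5 CPM, where fewer genes were tested, and 0 to 2 higher without a library. Log2 fold changes that reversed were Psmb9 (0.070 with library totals alone, 0.020 without WT replicate 2, lowest -0.050 without a library), Smad4 (-0.063 without KO replicate 2), Psmb5 (-0.011 without WT replicate 1, -0.032 without KO replicate 2, highest 0.091 without a library and 0.12 with library totals alone), H2-Aa (0.015) and H2-Ab1 (0.051) with library totals alone, and H2-Ab1 without WT replicate 2 (0.062) or KO replicate 2 (0.013, lowest -0.13). Smad4 without KO replicate 1 rose by 0.40 (edgeR adjusted p = 0.00806). The cause of these shifts was not tested. Over the 45 named genes and 12 alternatives, 37 of 540 values lost a call, 8 gained one and 9 reversed.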
